A study of Mus musculus with 8 samples.

Results

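Lyve1, Prox1, Pdpn and Flt4 are genes commonly used to mark lymphatic endothelium, and their expression was compared between the mouse cornea and the limbus, the rim of tissue where the cornea meets the conjunctiva and sclera. The 4 genes were found by their symbols among the 23420 named genes of the deposited table. Corneal buttons and limbal rims were dissected from wild type C57BL/6J mice aged 8 weeks, and the tissue of several eyes was pooled before RNA extraction. Both groups had the same genotype and age, no treatment is named for either, and they differed by the region dissected. Total RNA libraries were prepared with a stranded kit and sequenced on an Illumina NextSeq. The labels name 8 samples, 4 of each tissue numbered from L001 to L004, but the table combines 1 library of each tissue. No replicate of either tissue was therefore available, and no difference below has a replicate check.

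Lymphatic capillaries drain fluid and carry immune cells from tissue to lymph nodes. Prox1 is the homeodomain transcription factor that gives endothelial cells their lymphatic identity, and Flt4 encodes VEGFR-3, the receptor for the growth factors VEGF-C and VEGF-D. Lyve1 encodes a hyaluronan receptor of lymphatic capillaries that part of the tissue macrophages also carry. Pdpn encodes podoplanin, a mucin-type membrane glycoprotein of lymphatic endothelium that stromal and epithelial cells can also make. The healthy cornea is free of vessels, whereas the limbus holds blood and lymphatic vessels and borders Schlemm's canal, whose endothelium carries Prox1 and Flt4.

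The 250 bases before the RefSeq starts of Prox1 and Pdpn are shown because these genes had the lowest and the highest level of the 4 in both libraries, and the stretches differ in base composition. They are RefSeq sequences of GRCm38.p6, on the strand of the gene and written 5′ to 3′. Capitals mark matches, on either strand, to the GC box GGGCGG, the TATA box TATAAA and the letters AGGTCA, a hexamer recognized by nuclear receptors such as the product of Nr2f2. Prox1 is shown for both its RefSeq starts, at chr1:190170828-190171077 and chr1:190169516-190169765 on the minus strand. The latter lies in an intron of Prox1 transcripts annotated by GENCODE. The stretch of Pdpn is chr4:143299565-143299814 on the minus strand. No sequence is shown for Lyve1 and Flt4.
Prox1, first start: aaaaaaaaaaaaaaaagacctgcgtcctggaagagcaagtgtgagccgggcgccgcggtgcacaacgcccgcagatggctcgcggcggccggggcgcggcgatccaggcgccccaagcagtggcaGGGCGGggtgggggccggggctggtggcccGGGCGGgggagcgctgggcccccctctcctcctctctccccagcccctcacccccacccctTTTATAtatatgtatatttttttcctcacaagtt
Prox1, second start: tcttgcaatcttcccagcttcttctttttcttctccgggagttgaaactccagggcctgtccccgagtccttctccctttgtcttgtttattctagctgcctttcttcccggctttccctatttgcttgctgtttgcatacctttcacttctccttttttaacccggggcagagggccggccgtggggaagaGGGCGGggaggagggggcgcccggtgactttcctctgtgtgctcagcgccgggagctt
Pdpn: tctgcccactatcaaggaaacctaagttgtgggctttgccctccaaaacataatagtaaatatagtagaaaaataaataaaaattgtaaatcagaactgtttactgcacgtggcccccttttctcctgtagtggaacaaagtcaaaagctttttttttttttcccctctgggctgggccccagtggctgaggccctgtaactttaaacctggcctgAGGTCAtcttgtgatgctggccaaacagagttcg

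G and C made up 64.8% and 56% of the Prox1 stretches and 43.2% of the Pdpn stretch, against a median of 52.4% over 32851 such stretches. The first Prox1 stretch had 2 matches to the GC box and the second 1, and 32.7% of all stretches had at least 1. The first Prox1 stretch held a TATA box on the other strand, which began 34 bases before the start and is found in 12.4% of stretches. Pdpn held no GC box and 1 match to AGGTCA, a hexamer present in 14.0% of stretches. The letters AACAAT for SOX factors, AGGAAG for ETS factors and AGATAA for GATA factors were not found in these 3 stretches, and occurred in 9.42%, 29.5% and 9.99% of all stretches. These matches describe letters only.

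On named genes there were 26104317 corneal and 21182025 limbal reads, and at least 1 read was found for 16016 and 16951 genes. Normalized reads were obtained by dividing by the size factors 1.03 (cornea) and 0.967 (limbus), and the log2 ratio is that of limbus over cornea. Each ratio has an exact 95% interval (Clopper-Pearson) that covers at most counting error, since each tissue is 1 library. Amplified reads that carry no molecular identifier may stem from the same molecule, which would make such an interval too narrow. A gene is called higher in a tissue when this interval lies clear of 0. In pooled tissue, fewer cells of a type and less RNA per cell cannot be told apart.

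Flt4, Lyve1 and Prox1 were far higher in the limbus, where 94.5% to 95.8% of the reads of each were found, whereas Pdpn was well expressed in both tissues and only slightly higher in the limbus. The limbal level was 23.7-fold the corneal one for Flt4, 18.5-fold for Lyve1, 1.35-fold for Pdpn and, from a single corneal read, 24.6-fold (3.99 to 1012) for Prox1. Flt4, Lyve1 and Pdpn had more than 3 reads in both libraries and all 3 were called higher in the limbus, beside 33.2% of the 13862 genes with as many reads, while 40.6% were higher in the cornea. Prox1 passed the limit of 3 reads through the limbus alone, where it is high, so it is not added to that count. A log2 ratio of at least 1 left 2 of the 3, without Pdpn.

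Prox1 lies on chromosome 1 from 190118035 to 190170714 on the minus strand of GRCm38. It had 1 corneal and 23 limbal reads, which normalization turned into 0.967 and 23.8. The log2 ratio was 4.62 (2.0 to 9.98), with the widest interval of the 4 genes. The limbal share of its reads was 95.8% (78.9 to 99.9). The antisense genes Gm28172 and Prox1os overlap Prox1 over 964 and 419 bases on the opposite strand. Neither is in the table, and whether the counting used strand is not given in the sources used here, so antisense reads counted for Prox1 cannot be told apart.

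Flt4, on chromosome 11 from 49609263 to 49652739 on the plus strand, had 11 corneal and 244 limbal reads. After normalization these were 10.6 and 252, a log2 ratio of 4.57 (3.70 to 5.59). As a fold, this interval runs from 13.0 to 48.1. A lower ratio was found for 99.3% of the 13862 genes.

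Lyve1 lies on chromosome 7 from 110850607 to 110863239 on the minus strand. The cornea gave 7 reads and the limbus 121, which were 6.77 and 125.1 after normalization. The log2 ratio was 4.21 (3.12 to 5.55), a fold between 8.70 and 46.9, and 99% of the same genes had a lower one. The deposited mean of Lyve1 would also allow 116 corneal and 19 limbal reads, and the authors' deposited fold change decided between these pairs.

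Pdpn, on chromosome 4 from 143267431 to 143299564 on the minus strand, stood apart from the other 3 genes. It had 2304 corneal and 2911 limbal reads, which normalization turned into 2229 and 3009. With so many reads the interval of its log2 ratio of 0.43 was narrow, from 0.35 to 0.51, and clear of 0. The ratio was above that of 74.4% of the 13862 genes. Pdpn therefore did not follow the other 3 markers of lymphatic endothelium. By reads, Pdpn ranked 2076 among genes in the cornea and 1254 in the limbus, whereas Flt4 ranked 12864 and 8869, Lyve1 13325 and 10572, and Prox1 15031 and 13106.

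**Figure D1:**
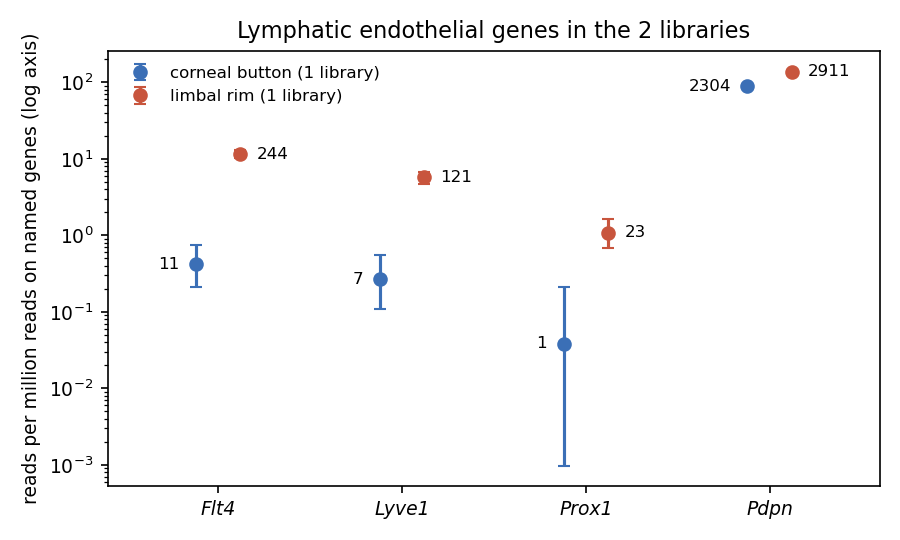
Reads per 1000000 reads on named genes (RPM, log axis) for Flt4, Lyve1, Prox1 and Pdpn in the corneal library and the limbal library, with exact 95% intervals of the counts and the reads printed beside each point. Pdpn had 2304 and 2911 reads, while the other 3 genes had 1 to 11 in the cornea and 23 to 244 in the limbus, with intervals of the 2 tissues that do not overlap.

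Levels can be compared between genes only per length, and exons of each gene were merged for this. The level per length was taken as reads per 1000000 reads on named genes (RPM) and per kilobase of exons (RPKM). In the limbus it was 75.6 (72.9 to 78.4) for Pdpn, 1.96 (1.62 to 2.34) for Lyve1, 1.40 (1.23 to 1.59) for Flt4 and 0.129 (0.0820 to 0.194) for Prox1. The intervals of neighbors in this order did not overlap, and Lyve1 and Flt4 were the closest pair. That pair depends on the length chosen, because with the longest transcript in place of all exons Flt4 reached 1.84 and Lyve1 1.97. In the cornea, Pdpn had a level of 48.6 RPKM, Lyve1 0.0919, Flt4 0.0512 and Prox1 0.00457. The corneal intervals of Lyve1 (0.0369 to 0.189) and Flt4 (0.0256 to 0.0916) overlapped, so their order there was not resolved.

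The log2 ratios of the members were then compared with each other, which does not depend on how the libraries are scaled. Lyve1 minus Flt4 was -0.36 (the interval of the difference ran from -1.90 to 1.28), and Prox1 minus Flt4 was 0.05 (-2.85 to 5.54). Differences among these 3 genes were not detectable at this depth, and the intervals leave room for more than 2-fold either way. Pdpn was different from each of them. Lyve1 exceeded Pdpn by 3.77 on the log2 scale (2.68 to 5.12), Prox1 exceeded it by 4.19 (1.56 to 9.55), and the difference of Pdpn from Flt4 was -4.13 (-5.16 to -3.26). For every 100 Flt4 reads, the cornea had 9.09 Prox1 reads and 63.6 Lyve1 reads, and the limbus had 9.43 and 49.6. Those corneal values rest on 1 and 7 reads.

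The rest of the lymphatic pathway was described with 4 lists of ligands, receptors, transcription factors and other lymphatic genes, 47 genes in all. Ccl21a, the chemokine with which lymphatic endothelium draws in dendritic cells, was listed at 0 in both libraries, a value that its near-identical gene copies make uncertain. Of the other 46 genes, 35 were higher in the limbus, 6 in the cornea and 5 in neither, beside 34% (limbus) and 36.5% (cornea) of all 15572 genes that passed 3 reads in 1 library or both. Of these, 11 passed through the limbus alone, and among the other 35 there were 24 higher in the limbus, 6 in the cornea and 5 in neither. Over the 46 genes the median log2 ratio came to 2.13, against 0.01 over all those genes, with libraries of 3 reads or fewer set to 3. The scaling matters for genes with ratios near 0. Dividing by total reads raises every log2 ratio by 0.21 and turns the calls over the 13862 genes from 4596 limbal and 5627 corneal ones, 45.0% limbal, to 6252 and 4122, 60.3% limbal. All 4 genes of interest remained higher in the limbus under that scaling.

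Both ligands of Flt4 were higher in the limbus. Vegfc, which encodes VEGF-C, had 19 corneal and 88 limbal reads, a log2 ratio of 2.31 (1.58 to 3.11). Vegfd, listed under its older symbol Figf, had 15 and 63 (2.17, 1.34 to 3.09). Ccbe1, whose product helps to activate VEGF-C, went the other way with 117 corneal and 28 limbal reads, a log2 ratio of -1.97 (-2.62 to -1.36). The proteases that cleave VEGF-C were sparse, with 3 and 12 reads for Adamts3 (2.10, 0.21 to 4.56) and 0 and 34 for Adamts14, whose interval starts at a log2 ratio of 3.22. In all, 7 of the 9 genes for ligands and their processing were higher in the limbus, beside 34% of all genes. Adamts3 and Adamts14 passed 3 reads through the limbus alone. Of the other 7 genes, 5 were higher in the limbus, beside 33.2% of genes with as many reads. Ccbe1 was the gene higher in the cornea, and Adm, which encodes adrenomedullin, was called in neither tissue with 77 and 68 reads.

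Among the 11 other receptor genes, 8 were higher in the limbus, 1 in the cornea and 2 in neither. Over all genes the shares were 34% (limbus) and 36.5% (cornea). Of the 11 genes, 2 passed 3 reads through the limbus alone. Among the other 9, 6 were higher in the limbus, beside 33.2% of genes with as many reads. Nrp2, the coreceptor that binds VEGF-C together with VEGFR-3, had 100 corneal and 337 limbal reads, a log2 ratio of 1.85 (1.52 to 2.19). Flt4 exceeded Nrp2 by 2.72 (1.77 to 3.79). Kdr, which encodes VEGFR-2 of blood and lymphatic endothelium, had 170 and 278 reads (0.81, 0.52 to 1.09), and Flt4 exceeded it by 3.76 (2.84 to 4.82). Itga9, an integrin subunit of lymphatic valves, had 34 and 172 reads (2.43, 1.90 to 3.01). The angiopoietin receptor gene Tek had 2 and 178 reads (6.57, 4.70 to 9.63), and its relative Tie1 had 44 and 519 (3.66, 3.21 to 4.13). Calcrl and Efnb2 were in neither group and moved to the limbus under scaling to total reads.

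Of the 11 other transcription factor genes, 7 were higher in the limbus, 3 in the cornea and 1 in neither. Over all genes the shares were 34% (limbus) and 36.5% (cornea). Of the 11 genes, 4 passed 3 reads through the limbus alone. The other 7 split into 3 limbal, 3 corneal and 1 in neither, beside 33.2% and 40.6% among genes with as many reads. Sox18, which switches on Prox1 in the embryonic vein, had 1 corneal and 198 limbal reads, a log2 ratio of 7.73 (5.23 to 13.0). Nr2f2, which encodes the partner COUP-TFII, had 1794 and 1385 reads (-0.28, -0.38 to -0.18), which scaling to total reads moved to -0.07 and to neither tissue. The valve genes Foxc2 and Gata2 had 1 and 83 reads (6.47, 3.95 to 11.8) and 0 and 56 reads, the latter with an interval that starts at 3.97. Foxc1, called in neither tissue, also depended on the scaling and was called in the limbus with total reads. Klf4, abundant in corneal epithelium, had 26458 and 10248 reads (-1.27, -1.31 to -1.24). Prox1 thus had fewer limbal reads than Sox18, Foxc2 or Gata2.

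Of the 15 other lymphatic genes that passed 3 reads in a library, 13 were higher in the limbus, 1 in the cornea and 1 in neither. Over all genes the shares were 34% (limbus) and 36.5% (cornea). Of the 15 genes, 3 passed through the limbus alone. Among the other 12, 10 were higher in the limbus, beside 33.2% of genes with as many reads. The genes of this list closest to Flt4 and Lyve1 in ratio were Mmrn1, Fabp4 and Reln. Mmrn1, which encodes a multimerin of lymphatic and other endothelium, had 12 corneal and 240 limbal reads, a log2 ratio of 4.42 (3.59 to 5.39). Lyve1 differed from it by -0.21 (-1.71 to 1.41) and Flt4 by 0.15 (-1.19 to 1.5). Reln, which encodes a secreted glycoprotein of lymphatic endothelium, had 14 and 191 reads (3.87, 3.08 to 4.76). Sema3d was the gene higher in the cornea, with 707 and 357 reads (-0.89, -1.08 to -0.70). Sema3a was in neither group and moved to the limbus under scaling to total reads.

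Of 7 genes known to limit vessel growth, 6 were higher in the limbus and the remaining 1, Sema3e, in the cornea, beside 34% and 36.5% of all genes. Flt1 and Dll4 passed 3 reads through the limbus alone, and of the other 5 genes 4 were higher there. Flt1, which encodes VEGFR-1 and its soluble form that traps VEGF-A, had 0 corneal and 225 limbal reads, with an interval that starts at 6.01. Thbs1, which encodes the antiangiogenic matrix protein thrombospondin 1, had 968 and 3129 reads (1.79, 1.68 to 1.89). Sema3e had 33 and 16 reads (-0.95, -1.91 to -0.05) and was called in neither tissue under scaling to total reads.

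**Figure D2:**
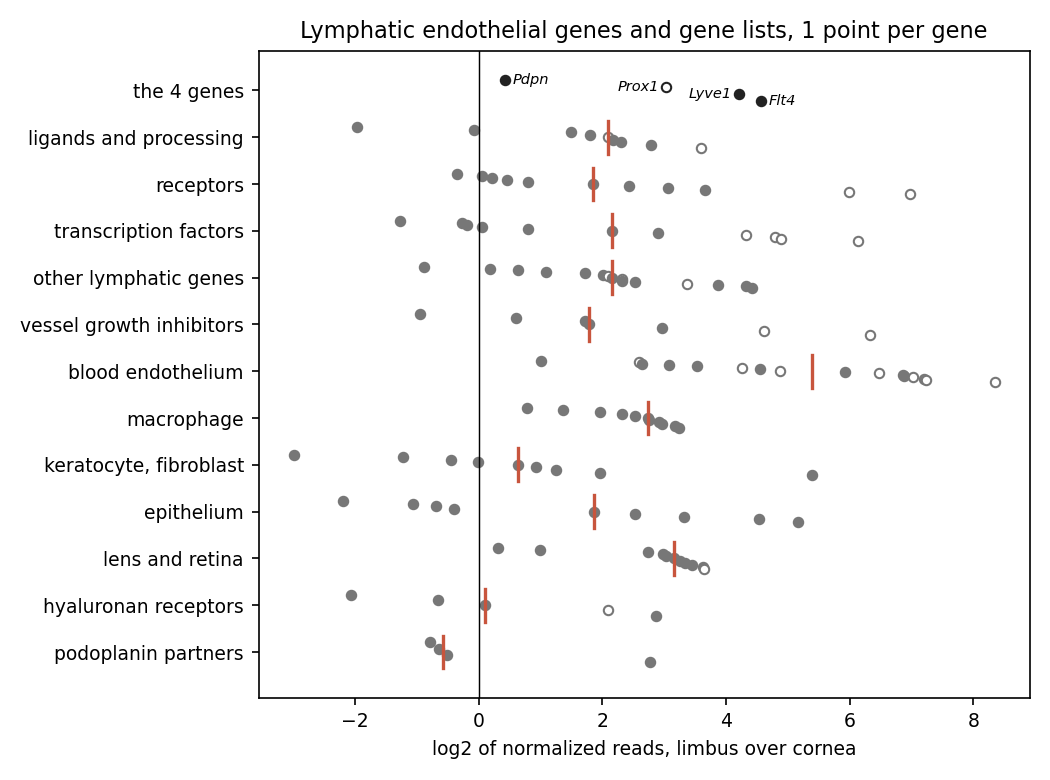
Log2 ratio of normalized reads, limbus over cornea, for the 4 genes and the genes of each list with more than 3 reads in at least 1 library, 1 point per gene. Open circles are genes with 3 reads or fewer in the cornea, which was then set to 3 reads (Prox1 among them). Red lines are list medians over open and filled circles, 2.10 for ligands and 5.40 for blood endothelium. Pdpn lies at 0.43, apart from Lyve1 at 4.21 and Flt4 at 4.57.

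The blood endothelium list holds genes of blood vessels and genes, such as Pecam1, that other endothelium shares. It therefore does not separate blood vessels from lymphatic ones. Its genes were also higher in the limbus. All 16 were called there, beside 34% of all genes, but 8 of them passed 3 reads through the limbus alone. The other 8 compare with 33.2% among genes with as many reads. The median log2 ratio was 5.40 over the 16 genes, with libraries of 3 reads or fewer set to 3. Since 8 of these passed through the limbus alone, against 11 of the 46 lymphatic genes, the medians of both groups are not comparable. The summed level of the 16 genes was 28.4 RPM in the cornea and 350 in the limbus. Among the 8 genes above 3 reads in each library, single log2 ratios ran from 1.0 for Erg to 7.21 for Pecam1, and Ackr1, Selp and Sele were at 0 in the cornea. Pecam1, an adhesion molecule of all endothelium, had 6 and 831 reads, a log2 ratio of 7.21 (6.08 to 8.66). Lyve1 lay below Pecam1 by a log2 difference of -3.00 (-4.87 to -1.17) and Flt4 by -2.64 (-4.37 to -1.06), whereas for Prox1 the interval ran from -5.72 to 2.99. For every 100 Pecam1 reads, the cornea had 183 Flt4 reads and 117 Lyve1 reads, and the limbus had 29.4 and 14.6. In the cornea these shares rest on 11, 7 and 6 reads. The part of blood vessels in the levels of Flt4, which fenestrated and growing vessels can carry, was not tested.

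**Figure D3:**
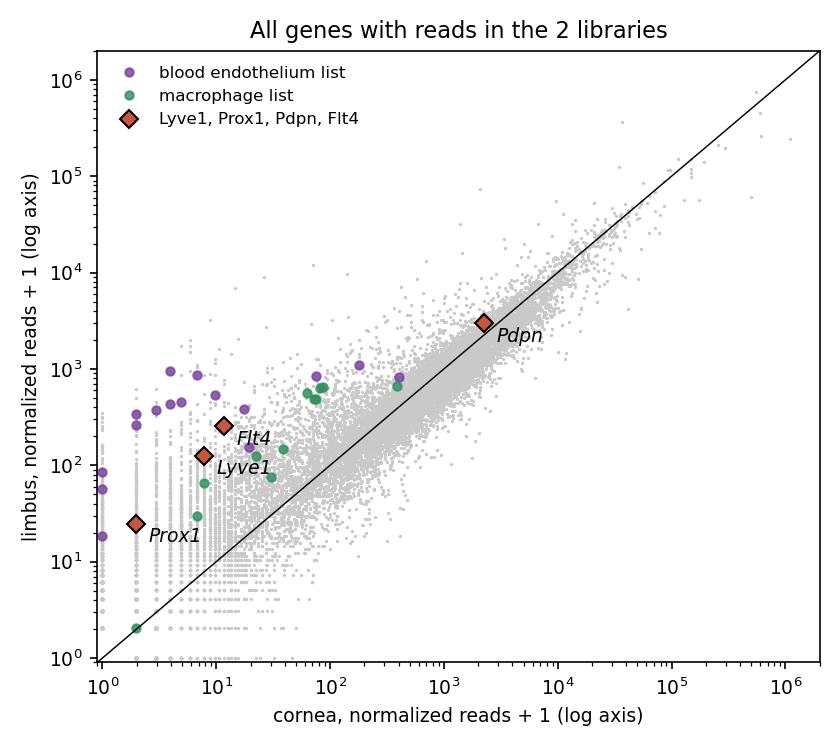
Normalized reads plus 1 in the limbus against the cornea (both log axes) for all genes with reads (gray), with the blood endothelium list (purple), the macrophage list (green) and the 4 genes (diamonds); the line marks equal values. Flt4, Lyve1 and Prox1 lie far above the line, and Pdpn lies just above it at 2229 in the cornea and 3009 in the limbus.

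Macrophage genes, of interest because part of these cells carry Lyve1, were higher in the limbus too. All 11 macrophage genes that passed 3 reads in a library were higher there, beside 33.2% of genes with as many reads, with log2 ratios from 0.78 to 3.24 and a median of 2.74, and Timd4 had 1 read in each. The level summed over the list was 34.2 RPM in the cornea and 179 in the limbus. Csf1r, the receptor macrophages need for survival, had 74 and 465 reads (2.75, 2.39 to 3.12), and Folr2, a gene of resident macrophages that often carry Lyve1, had 83 and 609 (2.97, 2.64 to 3.32). Lyve1 exceeded Csf1r by 1.46 (0.29 to 2.86) and Folr2 by 1.24 (0.08 to 2.63). Flt4 exceeded Csf1r by 1.82 (0.86 to 2.91). How much of the Lyve1 reads came from macrophages was not tested.

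**Figure D4:**
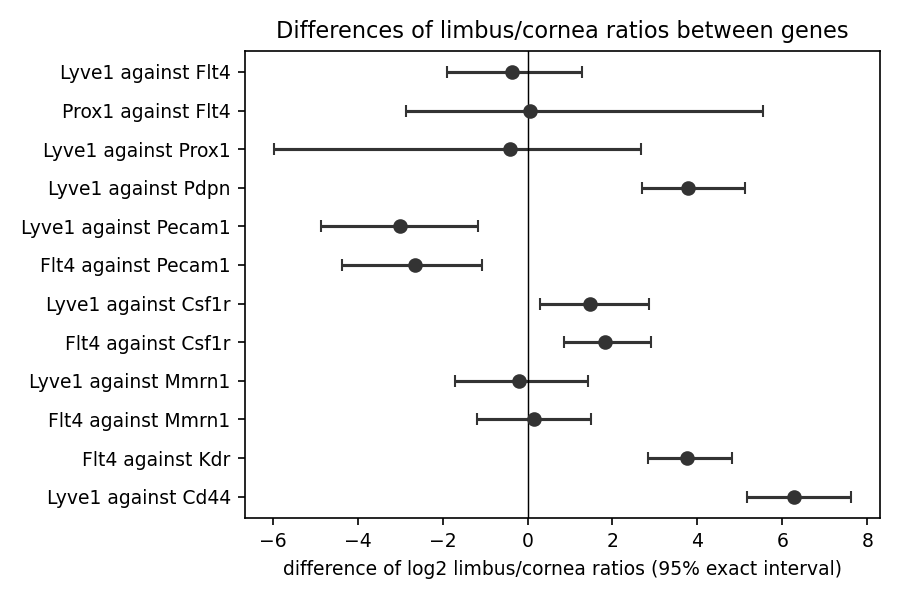
Differences of log2 limbus/cornea ratios between the first and the second gene of each pair, with exact 95% intervals from the reads. Lyve1, Flt4 and Prox1 have intervals that cross 0 when compared with each other, as do Lyve1 and Flt4 when compared with Mmrn1. Lyve1 and Flt4 lie below Pecam1, and they lie above Csf1r, Kdr and Cd44 where shown.

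Lyve1 is a relative of Cd44, the main hyaluronan receptor of epithelial and immune cells, and the pair had opposite directions. Cd44 had 13065 corneal and 2934 limbal reads, a log2 ratio of -2.06 (-2.12 to -2.0), so that Lyve1 exceeded it by 6.27 (5.18 to 7.61). Stab1 and Stab2 encode receptors that take up hyaluronan and other ligands, with 74 and 505 reads (2.87, 2.51 to 3.24) and 0 and 12 reads. Hmmr, a hyaluronan-binding protein of dividing cells, had 778 and 461 (-0.66, -0.83 to -0.49), and Layn had 37 in each. Of these 5 genes, 2 were higher in the limbus, 2 in the cornea and 1 in neither. Over all genes the shares were 34% (limbus) and 36.5% (cornea). Stab2 passed 3 reads through the limbus alone, and of the other 4 genes 1 was higher there. Per length, the limbal level was 20.4 RPKM for Cd44 and 2.32 for Stab1, against 1.96 for Lyve1.

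Podoplanin binds CLEC-2 of platelets, CD9, galectin-8 and, inside the cell, the ezrin and moesin linkers to actin. The gene of CLEC-2, Clec1b, was listed at 0. Msn had 144 corneal and 915 limbal reads (2.76, 2.51 to 3.03), whereas Ezr, Cd9 and Lgals8 were higher in the cornea, with log2 ratios of -0.80, -0.64 and -0.51. Pdpn at 0.43 thus lay between Msn and the other 3 partners.

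Genes of other cells that can make podoplanin had many reads in both libraries. Of 9 genes of keratocytes and fibroblasts, 5 were higher in the limbus, 3 in the cornea and 1, Lum, in neither (in the limbus with total reads). Over all genes with as many reads, the shares were 33.2% (limbus) and 40.6% (cornea). The 9 genes summed to 27409 RPM in the cornea and 17361 in the limbus, most of it from Aldh3a1, which corneal epithelium also expresses. Aldh3a1 gave 634936 of the 715502 corneal reads and 255152 of the 367733 limbal ones. Without Aldh3a1 the list had more reads in the limbus than in the cornea. Thy1, a surface protein of fibroblasts and other cells, was the most limbal of the 9 genes with 11 and 433 reads (5.39, 4.54 to 6.41). Kera, which encodes keratocan of keratocytes, was the most corneal (-2.99, -3.07 to -2.92). The 9 epithelial genes summed to 71464 RPM in the cornea and 61942 in the limbus. Krt12 of differentiated corneal epithelium had a log2 ratio of -2.19 (-2.20 to -2.18), and Krt15 of limbal basal cells had 3.32 (3.31 to 3.34). Kera, Krt5, Krt12, Krt14, Krt15 and Krt19 served to set the direction of the table, so their own directions are not results, and Kera is 1 of the 3 corneal genes counted above. The share of Pdpn reads from each of these cell types was not tested.

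Lens fibers and retinal neurons carry Prox1, and genes of both tissues were found in the libraries. All 11 lens and retina genes that passed 3 reads in a library were higher in the limbus, beside 34% of all genes, with a median log2 ratio of 3.16. Mip passed through the limbus alone with 3 and 35 reads, and Calb1 had 1 corneal and 3 limbal reads. Their summed level was 150 RPM in the cornea and 769 in the limbus. Cryaa, which encodes the lens protein alpha-A crystallin, had 468 and 5423 reads (3.63, 3.49 to 3.77). The limbal level of Prox1 was 1.09 RPM (0.688 to 1.63). Per length, it was 0.129 RPKM, against 123 for Cryaa. The part of lens or retina in its 23 limbal reads was not tested.

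The genes nearest to each member were sought by the distance of log2 normalized reads over the 2 libraries, among genes with more than 3 reads in both. Adam11 had the same read numbers as Lyve1, and Gatm and Rnf144a followed at a distance of 0.0734, with 12 genes within 0.25. Rasa4, Tspan13 and Sox4 were nearest to Flt4, which had 6 genes within 0.25. Mapkapk2, Tbc1d10a and Ergic1 were nearest to Pdpn, at distances of 0.0126, 0.0365 and 0.0423, with 86 genes within 0.25. For Prox1 the nearest were BC100451, Dynap and Lrrc25 at a distance of 2.0, since a gene with more than 3 corneal reads cannot come closer. With 2 libraries, nearness means only a like pair of levels.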

How the data were processed

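Limbal rims and corneal buttons were compared through 1 table. Per the study's methods, CLC Genomics Workbench was used to map reads to GRCm38 (mm10), and M-values (trimmed mean) to normalize them. The layout of the deposited table is that of DESeq output, which those methods do not name. The authors deposited a mean normalized signal per gene over both libraries. The authors deposited fold changes on the log2 scale, shrunken and with standard errors, and p-values with adjusted p-values, which hold their own comparison and are neither printed nor compared here. The 8 labelled samples have no values of their own, so each tissue is 1 library, and 0 columns of per-sample values were left unused. The header does not name the tissue on each side, and the direction was set by keratins and keratocan that the study's text places in cornea or limbus.

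Of 40904 rows, 17484 carry no gene name and were left out, and 5978 named genes have a mean of 0. The other 17442 means are whole reads of 2 libraries, 109 corneal reads being worth 102 limbal ones. The mean allows 1 pair of read numbers for 6143 genes, Prox1 among them. For the rest, Lyve1 with 2 allowed pairs, Flt4 with 3 and Pdpn with 50 among them, the pair closest to the deposited log2 fold change and standard error was taken, the only use made of those columns. All but 2 genes were met within 0.0001 in sum. For Pdpn the pair taken missed by 1.92e-06 and the next by 0.00295, and for 26 genes with near ties the dispersion of similar genes decided. The method was tested on simulated data. The reads used here are therefore inferred values.

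The limbal share of reads was given a Clopper-Pearson interval at the 95% level, and differences between genes have conditional exact intervals of the odds ratio, 38 pairs in all, not adjusted for their number. For genes at 0 in a library the lower end of the exact interval is given, and libraries of 3 reads or fewer were set to 3 in calls and medians. The accession column was not used, since of 18554 named rows whose accession is in RefSeq, 2 carried one of the named gene. Positions and exon lengths are from GENCODE (GRCm38), and older symbols were matched through RefSeq synonyms. Members, the 12 gene lists and the pairs were chosen with earlier results of these data known. Named are the 4 genes, the 3 nearest genes to each member, and part of the list genes with many reads, large ratios or a direct link to a member. Some genes with the most reads or the largest ratio of their list are not named. A few others were chosen after their values were seen. The values of 2 listed genes are not reported here. Alternatives were other scalings, a pseudocount of 1, means of at least 10 or 50, a log2 ratio of at least 1 and the longest transcript. Python 3.11.15 with numpy 2.4.6, scipy 1.17.1, pandas 2.3.3 and matplotlib 3.10.9 was used.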

Additional observations from a re-analysis of the deposited data

How the results depend on the processing

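Of 85 values recomputed under the alternatives, 78 moved by less than their counting interval or, for counts of genes, stayed within 1.5 times. No direction was reversed. Scaling to total reads moved the log2 ratio of Pdpn from 0.43 to 0.64, and the longest transcript moved the limbal level of Flt4 from 1.40 to 1.84 RPKM. With more than 3 reads required in each library, 5 ligand genes, 3 transcription factor genes, 8 blood endothelium genes and 5 keratocyte and fibroblast genes were higher in the limbus. A mean of at least 50 in place of that limit left 3 ligand genes and gave 13 blood endothelium genes. A mean of at least 10 gave 7 transcription factor genes and 15 blood endothelium genes, since it admits genes with 3 reads or fewer in the cornea. A log2 ratio of at least 1 left 3 keratocyte and fibroblast genes. Depth limits Prox1 most, with 24 reads in all. No paired analysis was possible because the table gives no values for the numbered samples, and for the same reason no replicate could be left out.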
